A study of Mus musculus with 9 samples.

Results

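Transcripts of 9 genes of the red cell membrane skeleton (Sptb, Ank1, Slc4a1, Epb41, Epb42, Add1, Add2, Dmtn and Tmod1) were examined in sorted mouse bone marrow megakaryocyte-erythrocyte progenitors (MEPs). The genes were chosen by name, as the rows of the count data whose identifiers map to these symbols, and all 9 were found among 35275 gene rows. Their levels were read in 9 RNA-seq libraries from 3 groups of 3. MEPs, gated as Lin-ckit+CD34-FcγRII/IIIlo, were sorted by HS3A8, an engineered antibody fragment (scFv) that binds certain heparan sulfate modifications. The paper split the gate at its median binding, with HS3A8-high MEPs above it and HS3A8-low MEPs below it. MPB49 control MEPs were mock-sorted with an scFv that does not bind heparan sulfate, so they stand for the whole MEP gate. No group carries a labelled allele or drug treatment, and each condition was prepared from 25000 cells. The study's legend gives individual mice as replicates, while the labels do not tie libraries to animals.

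The red cell keeps its shape through a net of spectrin under the plasma membrane. Long spectrin tetramers meet at junctions of short actin filaments, and the net hangs from the membrane both at ankyrin bound to band 3 and at the junctions themselves. Inherited loss of spectrin, ankyrin, band 3 or protein 4.2 gives spherocytosis, and loss of protein 4.1 gives elliptocytosis. Band 3 and other parts are best known from late erythroblasts, well after the MEP stage.

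Library totals ran from 11781637 to 15850037 counts, and 13936 to 15659 genes had a count. Levels are CPM (reads of a gene relative to the library total) scaled by TMM, a method that sets libraries to a common scale. Where no read was counted, up to 3 counts (0.189 to 0.255 CPM by library, without TMM) remain possible, a limit that covers counting error only. The MEP labels were checked by markers. All marker CPM in this paragraph are relative to library totals, without TMM. Small gaps or overlaps between groups may differ under TMM. The summed level of 8 erythroid markers ranged from 7569 to 8008 CPM for HS3A8-high, from 6180 to 6805 for HS3A8-low and from 6186 to 7480 for the control. Most of it was Car1 (5329 to 5666 CPM in HS3A8-high). On this scale Car1, Klf1, Epor and Tfrc did not overlap between HS3A8-high and HS3A8-low, whereas Gata1, Hba-a1, Hbb-bt and Alas2 did. The Gata1 overlap was small (467 to 518 CPM in HS3A8-high, 372 to 480 CPM in HS3A8-low) and may depend on the scale. Kit ranged from 378 to 801 CPM. In HS3A8-high and HS3A8-low replicate 3, Fcgr3 was 17.6 and 44.3 CPM and Fcgr2b 7.71 and 18.8 CPM. Elsewhere they were at most 2.36 and 3.15 CPM. Cd34 was 0.820 to 10.8 CPM in HS3A8-high, 30.3 to 74.4 in HS3A8-low and 13.3 to 43.2 in the control. The 9 megakaryocyte markers summed to 30.9 to 49.0, 185 to 399.7 and 131 to 192 CPM in the same order. The 7 stem and progenitor markers summed to 8.43 to 22.7, 134 to 166 and 49.4 to 109.6 CPM. The 7 T and NK cell markers gave 4.25 to 34.2, 153 to 176 and 44.1 to 93.6 CPM, and the 5 B cell markers gave 1.14 to 3.59, 9.59 to 12.7 and 3.39 to 7.16 CPM, with Pax5 at 0 in all libraries. The 12 granulocyte-monocyte markers summed to 1728 CPM in HS3A8-high replicate 3 and 4533 CPM in HS3A8-low replicate 3, against 9.10 to 257 CPM in the other 7 libraries. None of these 12 markers was at 0 in every library. The part of these other transcripts in the results was not tested.

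Promoters of 6 of the 9 genes were found in RefSeq (build GRCm38.p6, 250 bases before to 50 after a start). They are shown for Sptb, Add2 and Epb42, because these genes behaved differently across the libraries. Capitals mark, on either strand, the GATA factor motif as AGATAA or its variant form TGATAA, and the core of the KLF motif, which reads CACCC. The longer CCACACCC contains CACCC and was found in none of the 8 promoters of these 6 genes. Sptb lies at chr12:76710498-76710797 on the minus strand, Add2 at chr6:86028431-86028730 on the plus strand and Epb42 at chr2:121036828-121037127 on the minus strand.
Sptb: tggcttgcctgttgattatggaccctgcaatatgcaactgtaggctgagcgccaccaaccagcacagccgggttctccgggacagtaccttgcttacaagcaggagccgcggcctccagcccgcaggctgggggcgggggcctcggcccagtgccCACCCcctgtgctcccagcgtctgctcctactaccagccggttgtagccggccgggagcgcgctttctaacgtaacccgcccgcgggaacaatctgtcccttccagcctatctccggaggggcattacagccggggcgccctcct
Add2: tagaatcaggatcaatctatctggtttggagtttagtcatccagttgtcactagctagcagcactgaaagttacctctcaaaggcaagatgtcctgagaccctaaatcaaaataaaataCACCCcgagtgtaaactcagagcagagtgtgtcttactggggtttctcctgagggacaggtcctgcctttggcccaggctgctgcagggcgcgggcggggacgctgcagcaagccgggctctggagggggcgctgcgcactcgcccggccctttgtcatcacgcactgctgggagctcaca
Epb42: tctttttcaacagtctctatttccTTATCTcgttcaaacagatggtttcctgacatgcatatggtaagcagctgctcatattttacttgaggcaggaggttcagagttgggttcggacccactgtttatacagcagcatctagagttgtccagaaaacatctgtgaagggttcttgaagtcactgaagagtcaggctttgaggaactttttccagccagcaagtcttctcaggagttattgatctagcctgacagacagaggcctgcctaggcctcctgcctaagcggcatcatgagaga
The Epb42 window alone held a GATA motif, 1 AGATAA on the opposite strand, which reads TTATCT from position 25 of the printed window. AGATAA or TGATAA was present in 18.6% of all 32851 promoters. Sptb, Add2 and Tmod1 each held CACCC, as did 57.5% of all promoters. CCGCCC, present in 35.7% of all promoters, was found for Sptb, Add2, Add1, Tmod1 and 2 of the 3 Epb41 promoters. CAGCTG (16.3% of all promoters) was found for Epb42 and 1 Epb41 promoter, and CAGATG (17.2%) for Epb42. A match describes the letters and is not evidence of binding.

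Per kilobase of merged exon, which allows genes to be compared, Add1 had the highest level at 55.0 ± 10.97 CPM per kb (SD over 9 libraries). Add2 followed at 17.6 ± 3.84, Epb41 at 13.7 ± 3.40, Sptb at 8.61 ± 2.55, Epb42 at 6.54 ± 0.710 and Ank1 at 4.66 ± 1.35 CPM per kb. Slc4a1 at 0.865 ± 0.509, Dmtn at 0.331 ± 0.104 and Tmod1 at 0.310 ± 0.185 CPM per kb formed a much lower group. Among neighbours in this order, the ranges over libraries were separate only between Add1 and Add2 and between Ank1 and Slc4a1. Within single libraries the order was steadier. Epb41 exceeded Sptb and Slc4a1 exceeded Dmtn in 9 of 9 libraries, and Add2 exceeded Epb41 in 8 of 9, whereas Dmtn exceeded Tmod1 in 4 of 9. Add1 held 43.6% of the reads of the 9 genes.

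Sptb (chr12:76580488-76710547, minus strand) encodes erythroid beta-spectrin. Its level was 150, 108 and 89.4 CPM in HS3A8-high, 132, 103 and 91.8 CPM in HS3A8-low, and 40.3, 103 and 123 CPM in the control (replicates 1, 2 and 3). The groups overlapped, and control replicate 1 was the lowest of the 9 libraries. Ank1 (chr8:22974844-23150497, plus strand) encodes ankyrin-1, which ties spectrin to band 3. Its level was 95.5, 73.8 and 69.4 CPM in HS3A8-high, 62.6, 54.4 and 57.7 CPM in HS3A8-low, and 26.3, 65.0 and 62.2 CPM in the control. Every HS3A8-high library was above every other library.

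Slc4a1 (chr11:102348824-102366203, minus strand) encodes band 3, the anion exchanger. Its level was 1.70, 3.78 and 9.03 CPM in HS3A8-high, 6.87, 2.40 and 5.83 CPM in HS3A8-low, and 3.02, 1.98 and 3.46 CPM in the control. The spread within HS3A8-high covered all the other libraries. Alas2, the erythroid heme synthesis enzyme, was at 9.30 CPM in HS3A8-high replicate 3 and 7.52 CPM in HS3A8-low replicate 3, against 1.20 to 3.46 CPM elsewhere. Epb42 (chr2:121017891-121037072, minus strand) encodes protein 4.2, which binds band 3 and ankyrin. Its level was 37.1, 29.7 and 39.4 CPM in HS3A8-high, 39.7, 32.0 and 38.7 CPM in HS3A8-low, and 36.9, 30.5 and 34.9 CPM in the control. It was the steadiest of the 9 genes, and replicate 2 was the lowest of each group.

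Epb41 (chr4:131923413-132075321, minus strand) encodes protein 4.1R, which strengthens the binding of spectrin to actin. Its level was 284, 232 and 220 CPM in HS3A8-high, 271, 203 and 199 CPM in HS3A8-low, and 95.05, 238 and 224 CPM in the control. Add1 (chr5:34573664-34632308, plus strand) encodes alpha-adducin, found in most cells, which caps actin and recruits spectrin. Its level was 555, 515 and 480 CPM in HS3A8-high, 542, 498 and 363 CPM in HS3A8-low, and 271, 532 and 483 CPM in the control. Both genes overlapped between all groups, with the lowest value in control replicate 1. Add2 (chr6:86028681-86124409, plus strand) encodes beta-adducin, the erythroid and neuronal partner of alpha-adducin. Its level was 229.8, 217 and 204 CPM in HS3A8-high, 169, 173 and 144 CPM in HS3A8-low, and 101, 182 and 190.0 CPM in the control. As for Ank1, the 3 HS3A8-high libraries were the 3 highest.

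Dmtn (chr14:70601263-70636048, minus strand) encodes dematin, an actin-bundling protein of the junction. Its level was 2.71, 3.85 and 3.06 CPM in HS3A8-high, 4.58, 2.33 and 4.05 CPM in HS3A8-low, and 2.65, 1.60 and 4.35 CPM in the control. Tmod1 (chr4:46038935-46116032, plus strand) encodes tropomodulin-1, which caps the slow-growing end of actin filaments. Its level was 1.20, 0.604 and 1.13 CPM in HS3A8-high, 2.06, 1.06 and 1.86 CPM in HS3A8-low, and 2.36, 0.384 and 0.368 CPM in the control, from 5 to 35 counts per library. Both genes were near the lower end of what was tested, and their groups overlapped. Of the Tmod1 exon bases, 32.6% lie opposite exons of Tstd2, which was at 42.6 to 59.2 CPM. Whether the counting used the strand is not given in the sources used here, so reads of these 2 genes may not be separable.

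**Figure D1:**
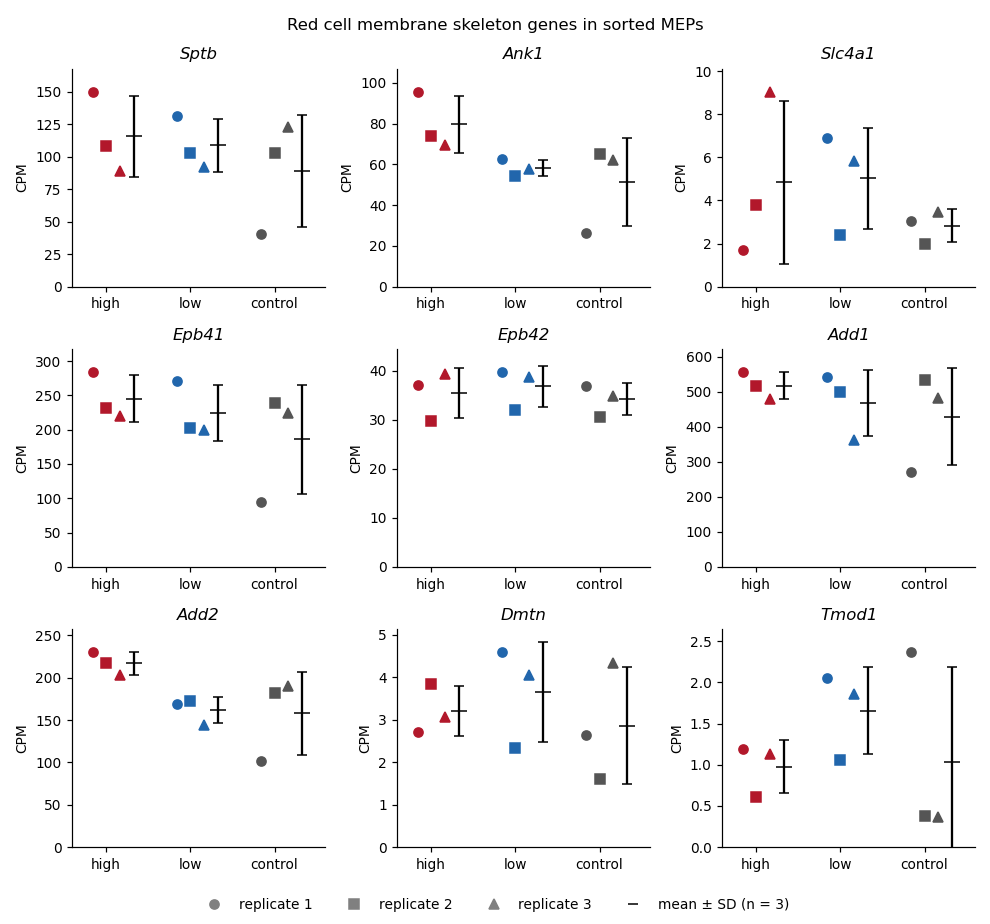
CPM (vertical axes, from 0) of the 9 genes in each library, by group (horizontal axis) and replicate (symbol), with mean ± SD of 3 libraries, lower bars ending at 0. Ank1 at 69.4 to 95.5 CPM and Add2 at 204 to 229.8 CPM in HS3A8-high sit above all other libraries, and control replicate 1 is lowest for Sptb, Ank1, Epb41, Add1 and Add2.

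HS3A8-high and HS3A8-low MEPs were compared to ask whether binding of the scFv separates MEPs with different expression of these genes. Under the edgeR quasi-likelihood test without pairing, 0 of the 9 genes passed an adjusted p of 0.05, where 3.82% of 11791 genes tested did, and 2 had an unadjusted p under 0.05, where 2339 genes of all did. Ank1 was 79.6 ± 13.99 CPM in HS3A8-high and 58.2 ± 4.14 CPM in HS3A8-low (SD, n = 3), a log2 fold change of 0.43 (SE 0.149, 95% interval 0.07 to 0.78, edgeR adjusted p = 0.172). Add2 was 217 ± 13.1 and 162 ± 15.5 CPM, a log2 fold change of 0.39 (SE 0.102, 95% interval 0.15 to 0.63, edgeR adjusted p = 0.0880). These 2 were the genes whose groups did not overlap, both higher in HS3A8-high, as in 14.1% of all genes tested. No member was separately lower in HS3A8-high, as 14.5% of all genes were. Log2 fold changes were above 0 for 5 of the 9 genes, against 46.6% of all genes, and their median was 0.06 against -0.03 over all genes.

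Libraries of the same number in HS3A8-high and HS3A8-low deviated together from their group means, so a fit that treats equal numbers as pairs (the replicate block) was also read. In it Ank1 (log2 fold change 0.42, edgeR adjusted p = 0.0487) and Add2 (0.40, edgeR adjusted p = 0.0229) rose in HS3A8-high, each higher in 3 of 3 pairs. The blocked fit called 11.6% of all genes tested, with 3.32% of all genes tested called higher and 8.27% called lower in HS3A8-high. Neither gene was called with pair 1 or pair 2 left out. Without pair 1 the blocked edgeR adjusted p was 0.279 for Ank1 and 0.164 for Add2, where 266 of 11918 genes were called. Without pair 2 it was 0.179 and 0.0783, where 639 of 12114 genes were. Without pair 3, which carries the granulocyte-monocyte transcripts, both were called (0.000511 and 0.000217), where 3569 of 11898 genes were. The log2 fold changes without pairs 1, 2 and 3 were 0.34, 0.41 and 0.52 for Ank1 and 0.40, 0.44 and 0.38 for Add2. These fits hold fewer libraries, and the part of that in the calls was not tested. DESeq2 without a block called Add2 (log2 fold change 0.41, adjusted p = 0.0157) and not Ank1, where it called 8.98% of all genes. In simulated unpaired data of this size DESeq2 made more false calls than its threshold allows, so its adjusted p is read with caution.

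The other 7 genes did not pass either fit. Sptb differed by 0.06 on the log2 scale, with a 95% interval of -0.46 to 0.59, Epb41 by 0.10 (-0.28 to 0.48), Epb42 by -0.08 (-0.45 to 0.29) and Add1 by 0.12 (-0.25 to 0.49). For these 4 the interval leaves room for differences of up to 0.59 in size. The low genes had wide intervals: Slc4a1 differed by -0.09 (-1.63 to 1.45), Dmtn by -0.22 (-1.07 to 0.63) and Tmod1 by -0.78 (-1.90 to 0.34), Tmod1 being lower in HS3A8-high in 3 of 3 pairs. Slc4a1 had 27, 50 and 136 counts in the HS3A8-high libraries, a coefficient of variation of 78.1% in CPM.

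**Figure D2:**
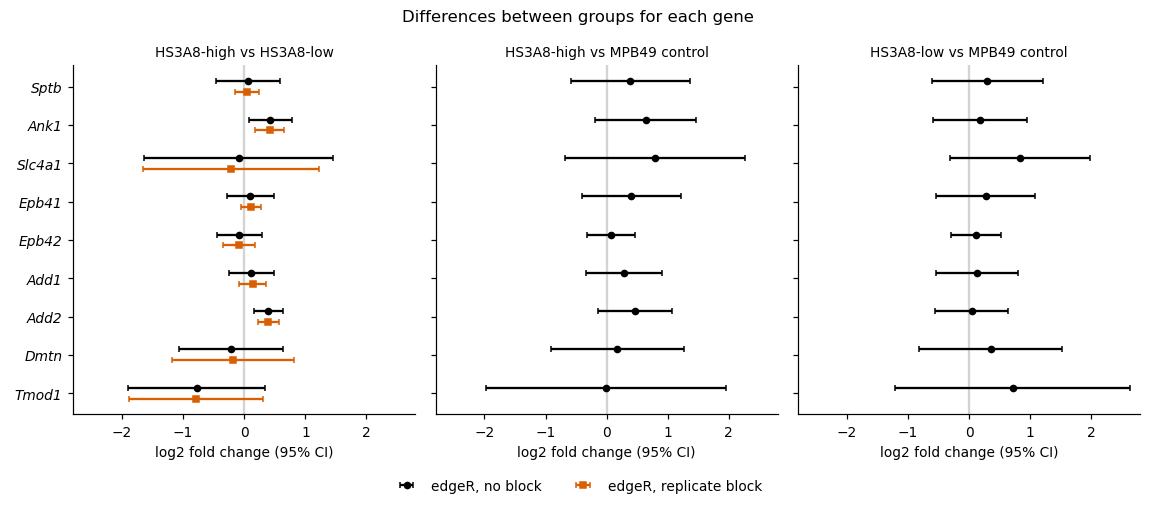
Log2 fold changes (horizontal axes) with 95% confidence intervals for the 9 genes in the 3 comparisons, without a block (black) and, for HS3A8-high against HS3A8-low, with the replicate block (orange). In that comparison the intervals of Ank1 (0.07 to 0.78) and Add2 (0.15 to 0.63) lie above 0, and every interval against the control spans 0.

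Both fractions were compared with the mock-sorted control, which they share, so these comparisons are not independent. In HS3A8-high against control, 0 of the 9 genes passed the edgeR test, where 0.0174% of 11486 genes did, 0 had an unadjusted p under 0.05, where 562 genes did, and DESeq2 called 143 genes and 0 of the 9. Ank1 (log2 fold change 0.64, SE 0.350, edgeR adjusted p = 0.733) and Add2 (0.47, SE 0.255, edgeR adjusted p = 0.733) were higher without overlap, as were 6.66% of all genes. In HS3A8-low against control, 0 of the 9 passed, where 0% of 11878 genes did. None of the 9 had an unadjusted p under 0.05, where 673 genes did, and DESeq2 called 95 genes and 0 of the 9. No member was free of overlap between these groups, against 12.8% of all genes.

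Leaving out control replicate 1 turned the direction in HS3A8-low against control and lowered the size in HS3A8-high against control. Log2 fold changes were above 0 for 8 of the 9 genes in HS3A8-high against control and 9 of 9 in HS3A8-low against control, where 49.7% of all genes were in each, and the medians of the 9 were 0.39 and 0.27. Without control replicate 1 they were above 0 for 9 and 4 of the 9 genes, with medians of 0.12 and -0.04. The 9 genes together made 579 CPM in control replicate 1, against 1155 and 1125 CPM in the other control libraries, 1115 to 1357 CPM in HS3A8-high and 906 to 1230 CPM in HS3A8-low. Sptb was lower in that library than the mean of the other controls by a log2 difference of -1.48, Epb41 by -1.28, Ank1 by -1.27, Add1 by -0.90 and Add2 by -0.87. Dmtn at -0.0046, Epb42 at 0.18, Slc4a1 at 0.19 and Tmod1 at 2.27 did not share this. Actb was also low there, at 1620 CPM against 3231 to 3725 CPM in the other 8 libraries.

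Transcript length moved with these values. The 5 genes that were low in control replicate 1 have 8.56 to 15.9 kb of merged exon, and of the other 4 only Dmtn (9.80 kb) is of that length. Actb, which was also low there, has only 2.68 kb. Over 9335 genes with at least 5 CPM, the median log2 difference of control replicate 1 from the other controls was 0.80 for genes under 2 kb, 0.09 from 2 to 4 kb, -0.22 from 4 to 8 kb and -0.47 over 8 kb. HS3A8-high replicate 1 and HS3A8-low replicate 1 had the opposite slope, with medians of 0.24 and 0.30 over 8 kb, and both held the highest Sptb, Ank1, Epb41 and Add1 levels of their group. The part of length in the differences between groups was not tested.

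**Figure D3:**
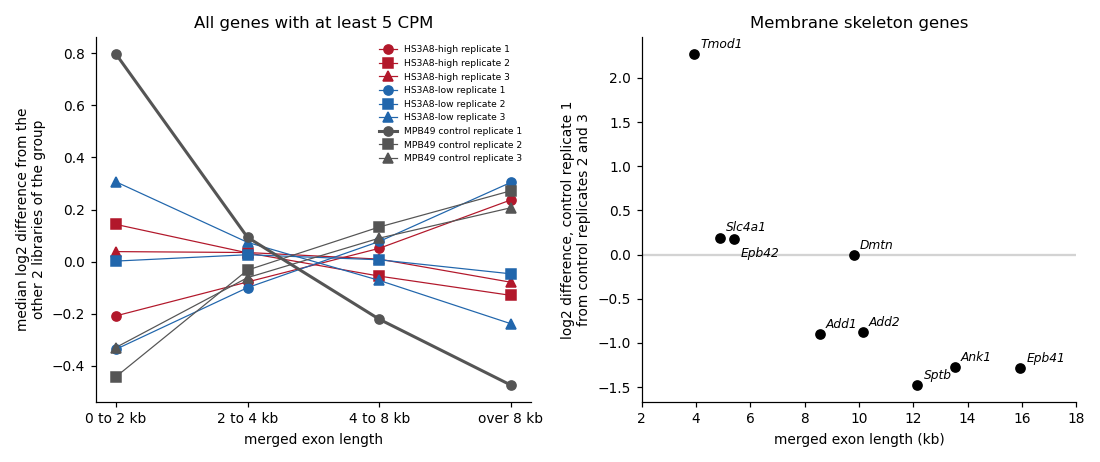
Left, the median log2 difference of each library from the other 2 of its group, by merged exon length, over genes with at least 5 CPM; right, the same difference of control replicate 1 for each of the 9 genes against exon length in kb. Control replicate 1 falls from 0.80 under 2 kb to -0.47 over 8 kb, and Sptb, Epb41, Ank1, Add1 and Add2 lie between -1.48 and -0.87.

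Ratios within a library do not depend on its scaling. The ratio of Add2 to Add1 per kb was 0.349, 0.356 and 0.358 for HS3A8-high, 0.264, 0.293 and 0.336 for HS3A8-low and 0.316, 0.289 and 0.332 for the control. The 3 HS3A8-high libraries were thus above the rest (exact two-sided permutation test of HS3A8-high against HS3A8-low, p = 0.1, the smallest that 3 against 3 can give). The ratio of Slc4a1 to Epb41 per kb overlapped, at 0.0195 to 0.134 for HS3A8-high and 0.0386 to 0.0954 for HS3A8-low.

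Paralogs of these genes, which serve in most other cells, were read from a list of 16, of which 7 were tested between the fractions. None passed the edgeR test without the block, 6 of the 7 had a log2 fold change below 0 and their median was -0.36. DESeq2 without a block called 3 paralogs, all lower in HS3A8-high: Sptan1, Sptbn1 and Epb41l3, the last with 0 counts in every HS3A8-high library and left out of the edgeR test by the count filter. With the edgeR block, both Sptan1 and Sptbn1 fell in HS3A8-high. Sptan1, the general alpha-spectrin, was at 2.46, 0.302 and 2.92 CPM in HS3A8-high, 14.7, 13.5 and 15.04 CPM in HS3A8-low and 1.04, 6.53 and 4.86 CPM in the control. Sptbn1, its beta partner, was at 4.85, 2.04 and 9.23 CPM in HS3A8-high, 38.4, 19.8 and 22.0 CPM in HS3A8-low and 10.49, 14.8 and 17.97 CPM in the control. Neither overlapped between the fractions, with log2 fold changes of -2.94 for Sptan1 (edgeR adjusted p = 0.0609, blocked 0.0224) and -2.34 for Sptbn1 (edgeR adjusted p = 0.0680, blocked 0.0215). Without pair 1 the blocked adjusted p was 0.0650 and 0.0918. Per kb, Sptbn1 was 0.0131 to 0.0717 of Sptb in HS3A8-high and 0.133 to 0.202 in HS3A8-low (exact permutation p = 0.1). Add3, gamma-adducin, was 65.4 ± 10.4 and 82.1 ± 7.65 CPM (log2 fold change -0.36, edgeR adjusted p = 0.241) and did not pass either fit. The summed megakaryocyte and stem cell markers also lay lower in HS3A8-high without overlap, their part in this was not tested, and in bulk RNA fewer cells of a type cannot be told apart from less RNA per cell.

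**Figure D4:**
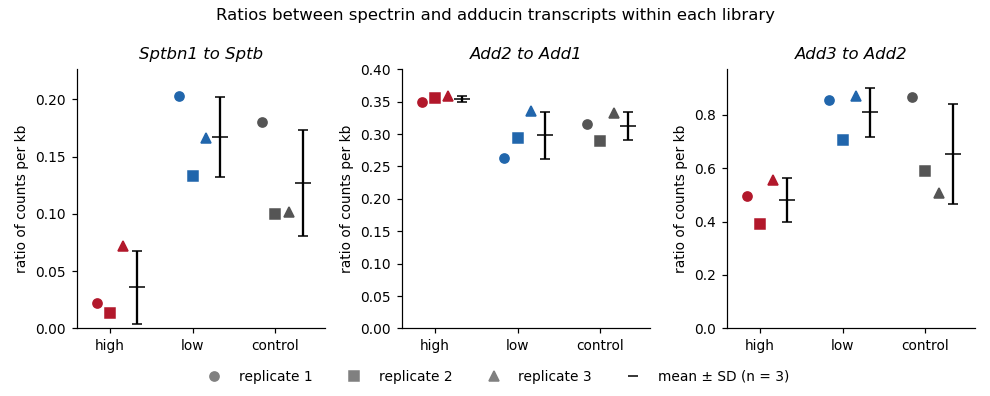
Ratios of counts per kb (vertical axes, from 0) within each library, by group and replicate, with mean ± SD of 3 libraries. Sptbn1 to Sptb is 0.0131 to 0.0717 in HS3A8-high and 0.133 to 0.202 in HS3A8-low, Add2 to Add1 is 0.349 to 0.358 and 0.264 to 0.336, and Add3 to Add2 is 0.391 to 0.555 and 0.704 to 0.868, in the same order.

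Of 10 actin, tropomyosin, capping and junction genes, all were tested and none passed the edgeR test without the block, 7 having a log2 fold change below 0 in HS3A8-high against HS3A8-low. With the block, Tpm3 and Tpm4, tropomyosins that run along actin filaments, fell. Tpm3 was 306 ± 30.2 and 398 ± 19.0 CPM (log2 fold change -0.41, edgeR adjusted p = 0.0610, blocked 0.0215), and DESeq2 also called it. Tpm4 was at 2.02, 0.755 and 16.3 CPM in HS3A8-high and 14.04, 12.8 and 47.2 CPM in HS3A8-low, highest in the replicates with granulocyte-monocyte transcripts (log2 fold change -1.98, 95% interval -4.52 to 0.57, edgeR adjusted p = 0.369, blocked -2.55 and 0.0223), and its groups overlapped. Of 13 membrane partners and surface proteins, 11 were tested and 8 had a log2 fold change above 0. Piezo1, the mechanosensitive cation channel, was at 193, 144 and 144 CPM in HS3A8-high and 151, 92.1 and 97.1 CPM in HS3A8-low (log2 fold change 0.47, edgeR adjusted p = 0.305, blocked 0.0223), with 24.6% of its exon bases opposite Ctu2. Without pair 1 none of these 3 passed with the block, and without pair 2 only Tpm4 did. In the comparisons with the control, none of the 39 genes of these lists passed the edgeR test, and DESeq2 called 1, Epb41l3, in HS3A8-high against control.

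Across the 9 libraries Sptb, Ank1, Epb41, Add1 and Add2 moved together. Pearson's r of log2 CPM was 0.97 between Sptb and Epb41, 0.95 between Ank1 and Add2 and 0.93 between Epb41 and Add1. Dmtn, also long, had r from -0.03 to 0.23 with these 5. Over all 36 pairs of the 9 genes, 21 were positive and the lowest was -0.59, between Add2 and Tmod1. These values describe libraries that include control replicate 1, with its lower level of long transcripts. The genes most like the mean profile of the 9, among 9332 with at least 5 CPM, were Cpsf7 (r = 0.95), Osbpl9 (0.93), Thap4 (0.93), Ikbkg (0.93) and Znfx1 (0.91).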

How the data were processed

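RNA from FACS-purified MEPs was sequenced from low-input libraries. The authors deposited raw, unnormalized read counts by gene with a column for each library and no pooling of replicates. The submitters' processing notes name STAR 2.5, HTSeq 0.6.1 and mm10. The annotation release and strand setting are not given in the sources used here. Identifiers were joined to GENCODE symbols on GRCm38 (34490 of 35275 matched).

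Counts were analysed in R 4.3.3 with edgeR 4.0.16: filterByExpr, TMM, the quasi-likelihood test on the 2 groups compared, and Benjamini-Hochberg adjustment over all genes tested, with a threshold of 0.05. CPM were TMM-scaled over 9 libraries, except in the check of the MEP labels by markers, where they were relative to library totals. Log2 CPM used a prior count of 2. DESeq2 1.42.0, other scalings, no count filter, 1 fit of all libraries, the replicate block and leaving out each library were alternatives. Leaving out libraries numbered 3 or single pairs, the ratios and the length profile were chosen after seeing the data. Fits were tested on simulated data.

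Whether numbers pair the 2 fractions was checked by how libraries deviate from their group: Pearson's r was 0.35 to 0.52 for equal numbers and -0.48 to 0.11 for unequal ones. The labels do not say that a number marks a mouse, so pairing is read from these data. Replicates are separate samples by their labels, and p-values measure the spread between them.

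The 9 genes, lists and markers were chosen with earlier results of these data known. Named genes were the 9 members, up to 5 list genes past the threshold per list part, here in the blocked fit, and the 5 genes most like the members. Add3, Alas2 and Actb were named after their values were seen. The values of 1 list gene are not reported here.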

Additional observations from a re-analysis of the deposited data

How the results depend on the processing

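Genes called between HS3A8-high and HS3A8-low numbered 451 in the main test, 1229 with DESeq2, 1367 with the replicate block and 748 without the libraries numbered 3, and 0 to 439 when 1 library was left out: 42 without HS3A8-high replicate 1, 53 without its replicate 2, and 56, 0 and 244 without HS3A8-low replicates 1, 2 and 3. Of the 9 genes, 1 was called by DESeq2 and 2 with the replicate block. The same 2 were called with the block without pair 3, and 0 under the other alternatives. Of the 39 list genes, 0 were called between the fractions in the main test, 4 by DESeq2, 1 with library totals, 2 with no count filter, 1 in the fit of all libraries, 5 with the replicate block, 4 without the libraries numbered 3 and 0 to 1 with 1 library left out. Against the control, HS3A8-high gave 2 calls, 143 with DESeq2, 9 with no count filter, 32 in 1 fit of all libraries, 0 with the replicate block and 0 to 5 with 1 library left out, and HS3A8-low gave 0 and, with DESeq2, 95. Replicate numbers did not pair the control with either fraction (r from -0.25 to -0.06 and from -0.36 to 0.02), and the block called none of the 9 genes there. Tmod1 against control changed sign in HS3A8-high with library totals (0.081), no count filter (0.019) and the replicate block (0.36). The causes were not tested.

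With 1 library left out, log2 fold changes that changed sign, none of them called, ran between HS3A8-high and HS3A8-low from -0.17 to 0.25 (Sptb), -0.90 to 0.32 (Slc4a1), -0.018 to 0.28 (Epb41), -0.15 to 0.037 (Epb42), -0.032 to 0.26 (Add1) and -0.44 to 0.0073 (Dmtn). In HS3A8-high against control they ran from -0.023 to 1.21 (Slc4a1), -0.013 to 0.16 (Epb42), -0.11 to 0.63 (Dmtn) and -0.41 to 1.37 (Tmod1). In HS3A8-low against control they ran from -0.053 to 0.60 (Sptb), -0.13 to 0.39 (Ank1), -0.043 to 0.49 (Epb41), -0.12 to 0.31 (Add1) and -0.20 to 0.20 (Add2). Ank1 and Add2 stayed above 0 between the fractions under every alternative run, from 0.27 to 0.53 and 0.32 to 0.46. The edgeR or DESeq2 adjusted p ran from 0.0487 to 0.584 and 0.0157 to 0.442, apart from the block with single pairs left out. There the edgeR adjusted p ran from 0.000511 to 0.279 for Ank1 and from 0.000217 to 0.164 for Add2.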
